A study of Danio rerio with 370 samples.

Results

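The genes described here encode voltage-gated sodium and calcium channels and potassium channels, with their accessory subunits. They were chosen by symbol, as every gene of the count table whose symbol starts with kcn, cacn, or scn followed by a digit, and number 188 of the 32266 genes listed. They carry 152 distinct symbols, because 31 symbols are shared by 67 identifiers, and a copy that shares its symbol is named here with its identifier. Of the 188 members, 153 had a read in at least 1 cell that passed the quality filters, 117 had a read in at least 3 such cells, and 35 had none.

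Cells came from forebrains (telencephalon and anterior diencephalon) of adult her4.1:mcherry;elavl3:gfp zebrafish, in which the her4.1 promoter drives mCherry in radial glia and the elavl3 promoter drives GFP in neurons. All groups carry both transgenes, and the mCherry protein is inherited by the progeny of radial glia for a time. Cells sorted as mCherry high and GFP negative form the radial glia (RG) gate, mCherry low and GFP positive cells the newborn neuron (NBN) gate, and mCherry negative and GFP positive cells the mature neuron (MN) gate. Single cells were sequenced with SMART-seq2, a plate-based full-length method without molecular identifiers, so the values count reads and not molecules. Of 370 cells, 264 passed the filters, which left 73 of 171 RG, 164 of 169 NBN and 27 of 30 MN cells. The RG and NBN cells came from 6 fish, named 1 to 5 and bfx811, where bfx811 is a separate sequencing batch whose cells are taken as 1 fish. The numbers 1 to 5 come from the cell titles. The deposited fish label has 4 values, which follow the plates, and it puts cells of fish 2 and of fish 4 under 2 values each, so that every n and SD over fish rests on the title numbers. The MN cells came from bfx811 alone, so fish and batch cannot be told apart there.

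Voltage-gated sodium channels carry the upstroke of the action potential, and voltage-gated calcium channels couple depolarization to transmitter release and to gene expression. Potassium channels set the resting potential, repolarize the spike and shape firing, through voltage-gated (Kv, KCNQ and EAG/ERG), calcium- or sodium-activated, inward rectifier and tandem-pore subunits. Accessory subunits change the traffic and gating of the pore subunits. The roles given below are known mainly from mammals. Levels are given as counts per 1000000 reads (CPM) in the summed cells of a fish, and they are compared between groups for the same gene and not between genes, since transcript lengths were not used. No sequence is printed, since none was at hand for this genome build.

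The median depth was 211548 reads per RG cell, 270898 per NBN cell and 191372 per MN cell. To compare numbers of genes, each cell was thinned to 20000 reads. Summed over each list, markers fixed by name followed the gate labels, though not every single marker did. Radial glia markers summed to between 21515 and 54055 CPM in the RG gate of the 6 fish and to between 565 and 3774 CPM in the NBN gate, and mature neuron markers to between 1.90 and 68.5 CPM in RG and to between 1796 and 3621 CPM in NBN. In the MN gate, mature neuron markers summed to 7340 CPM. Newborn neuron markers summed to between 0.54 and 878 CPM in RG, to between 3298 and 11642 CPM in NBN and to 1460 CPM in MN. Of that list, sox11 did not separate the gates, at 118, 120 and 111 CPM in the pooled RG, NBN and MN cells. The radial glia marker glul was read in 95.9% of RG cells but also in 61.0% of NBN and 77.8% of MN cells. Oligodendrocyte lineage markers summed to between 169 and 1699 CPM in the NBN gate, microglia and blood markers reached 1023 CPM in 1 RG sum, and endothelial markers reached 97.5 CPM in 1 RG sum. The part of these other cells in the values below was not tested. In sums of cells, fewer cells of a kind and less RNA per cell cannot be told apart.

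RG cells held few channel genes, NBN cells held several, and MN cells held the most. After thinning, the mean number of channel genes with a read per RG cell was 0.86, 1.18, 0.80, 0.53, 0.42 and 1.04 in fish 1 to 5 and bfx811. In the NBN gate of the same fish it was 5.85, 5.96, 5.93, 6.29, 8.0 and 8.70. Every fish was lower in RG than in NBN, and the highest RG fish lay below the lowest NBN fish. The mean difference, RG minus NBN, was -5.98 ± 1.31 channel genes (SD over 6 fish). All detected genes differed less between these gates, by -173 ± 253 genes per cell (SD, n = 6), with 4 fish lower and 2 fish higher in RG. Per 1000 detected genes, RG cells held 0.67 ± 0.23 channel genes and NBN cells 4.91 ± 0.71 (SD, n = 6 fish). Without thinning, the means were 2.30 ± 0.44 in RG and 10.5 ± 1.40 in NBN. With the deposited fish label (4 values) in place of the title numbers, RG minus NBN was -6.10 after thinning. No p is given for these numbers, since they are a score over the chosen members.

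After thinning, 31 of the 73 RG cells (42.5%) had a read of no channel gene, against 2 of the 164 NBN cells (1.22%). No RG cell held more than 5 channel genes, while the NBN cell with the most held 27. The MN cells held between 8 and 27, with a mean of 15.3 against 8.70 in the NBN gate of the same fish. MN cells of this fish also had more genes of any kind, with 1975 after thinning against 1479 in its NBN cells, and per 1000 detected genes the 2 gates held 7.76 and 5.88 channel genes. The MN difference rests on 1 fish and has no replicate check.

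**Figure D1:**
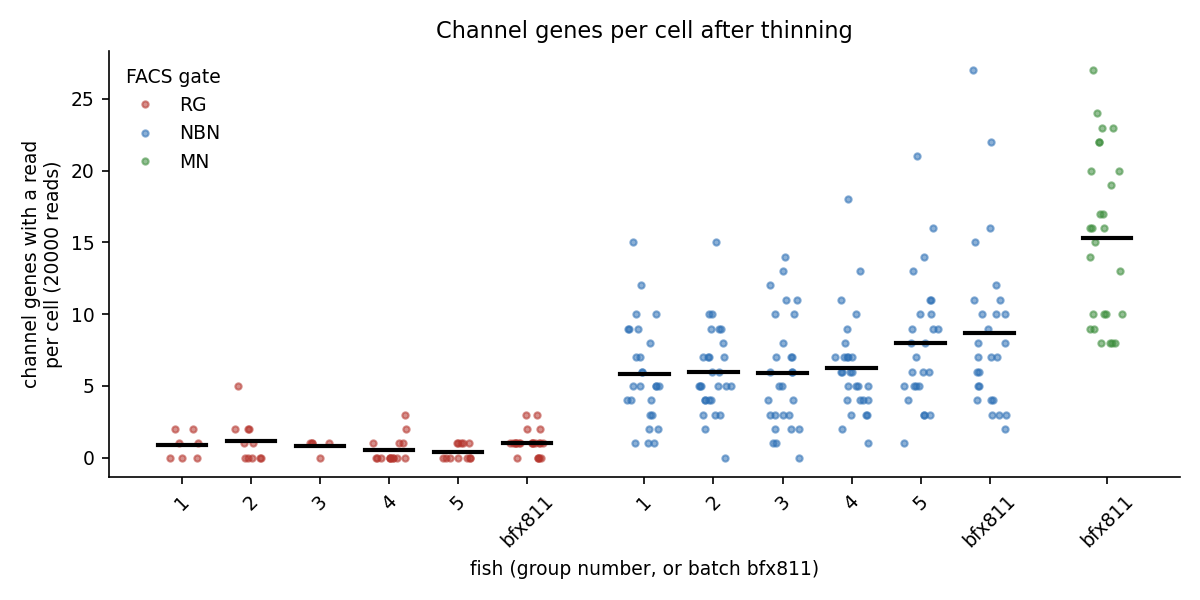
Number of channel genes with a read in each cell that passed, after thinning to 20000 reads (y axis), by fish (x axis) and FACS gate (color). Points are cells and black lines the mean of each fish; the RG means lie between 0.42 and 1.18, the NBN means between 5.85 and 8.70, and the single MN mean at 15.3.

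The order RG, NBN, MN held for the mean of each of the channel families. Kv pore subunits, the main delayed and transient potassium channels, averaged 0.13 genes per RG cell (0 to 0.29 over fish), 1.08 per NBN cell (0.74 to 1.48) and 2.93 per MN cell. Calcium channel pore subunits averaged 0.09, 0.77 and 1.96, and sodium channel pore subunits 0.02, 0.41 and 0.81. Sodium channel pores were thus read in 2 of 73 RG cells, 57 of 164 NBN cells and 18 of 27 MN cells.

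Inward rectifiers, which hold the membrane near rest and include G protein-gated and ATP-sensitive channels, were the family with a read in the most RG cells, 10 of 73, against 93 of 164 NBN cells. A single copy of KCNJ1 (ENSDARG00000002666) was read in 8 RG cells, and kcnj19a alone in 54 NBN cells. Kv pore subunits were read in 8 of the 73 RG cells. Tandem-pore (KCNK) leak channels were the sparsest family in the NBN gate relative to their 21 members, at 0.12 genes per NBN cell and 0.07 per RG cell. For these leak channels and for the calcium channel alpha2delta subunits the range of the RG fish overlapped that of the NBN fish. For the other families it did not. KCNQ channels, which carry the M current, had no read in any of the 73 RG cells after thinning, which allows a share of up to 4.11%. Before thinning, KCNQ3 alone of this family had RG reads, 18 in all.

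**Figure D2:**
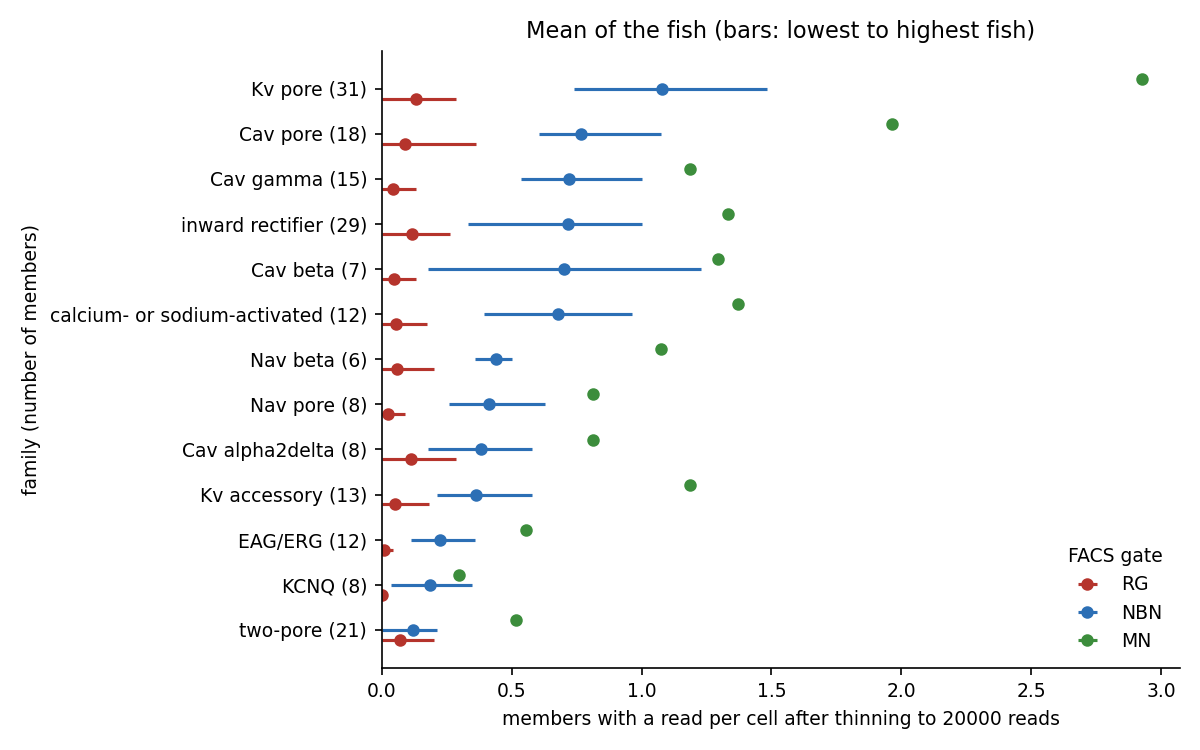
Mean number of members with a read per cell after thinning (x axis) for each channel family, with its number of members in brackets (y axis). Points are means over fish and bars run from the lowest to the highest fish (6 fish for RG and NBN, 1 for MN); Kv pore subunits reach 1.08 in NBN and 2.93 in MN.

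Without thinning, 68 members had a read in an RG cell, 141 in an NBN cell and 114 in an MN cell. Reads in all 3 gates were found for 54 members, and 82 had a read in an NBN cell and in no RG cell. Only 9 members had a read in RG and none in NBN. The NBN gate held 164 cells against 73 in RG, and the same split over all genes was not counted. After thinning, a share of 10% of cells was reached by 1 member in RG, by 18 in NBN and by 52 in MN. Over all genes listed, 3340 reached that share in RG, 3971 in NBN and 6198 in MN. A share of 25% was reached by none in RG, 3 in NBN (cacnb4b, KCNMA1 and kcnj19a) and 20 in MN. The number of all genes at that share was not counted, so these counts are not set against all genes. MN cells had more genes of any kind after thinning, at a median of 1957 against 1251.5 in NBN and 1291 in RG. The fewer cells of the MN gate make each of its shares less precise.

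The single member in at least 10% of RG cells was a copy of KCNJ1 (ENSDARG00000002666). KCNJ1 encodes an inward rectifier of the ROMK type, known in mammals from the kidney. It was chosen for mention after its values were seen. Its level in the RG gate was 0 CPM in fish 1, 68.3 in fish 2, 220 in fish 3, 37.5 in fish 4, 0 in fish 5 and 62.4 in bfx811. No NBN sum held a read, and 0 of 164 NBN cells allows a share of up to 1.83%. The reads lay in 9 of 73 RG cells, at a median of 399 CPM in these cells (52.3 to 1095), and 5 of the 9 came from bfx811. After thinning 8 RG cells (11%) and 1 of 27 MN cells (3.70%) kept a read, so the gene fell short of the 5-fold rule for a gate-specific gene. Of its 6 other listed copies, 5 had no read in the RG or NBN gate and ENSDARG00000088484 had 1 read, in the NBN gate. KCNJ10 and KCNJ16, which encode the inward rectifiers typical of mammalian glia, were nearly unread in RG. The copies of KCNJ10 had 8 and 1 reads there, all from bfx811, and KCNJ16 had none in either gate.

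For single genes, reads were summed per fish and gate and compared with edgeR's quasi-likelihood test over the 8393 genes that passed its filter on low counts, with Benjamini-Hochberg adjustment. Of the 188 members, 29 passed that filter and 159 did not. A gene that is low in RG could pass only through its NBN level, so the members tested are not a fair sample of the 188. Of the 29, 12 were lower in RG at an adjusted p of 0.05 and 0 were higher, and 17 had an unadjusted p under 0.05. Over all genes tested, 6.66% were lower in RG and 1.81% were higher. DESeq2 called 14 members lower, 12 of them the same, against 9.07% of all genes. The 12 are pore and accessory subunits of sodium, calcium and potassium channels. For each of them the value of every RG fish lay below that of every NBN fish. The test picked the 12 on these same sums, so this separation is no further evidence. The share of all genes with such a separation was not counted.

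Among the potassium channels, kcnj19a is an inward rectifier gene that the study itself picked on these cells, so its values are not independent evidence. In the NBN gate kcnj19a stood at 71.1, 779, 107, 886, 353 and 970 CPM in fish 1 to 5 and bfx811. In the RG gate it had 3 reads, in 1 cell of fish 2 (1.14 CPM). The ratio of pooled levels, NBN over RG, was 2859, with a counting interval of 978 to 13867 (adjusted p = 2.3e-05). kcnj19a was thus read in every NBN sum and nearly absent from RG, and its NBN level was lowest in fish 1 and 3.

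KCNMA1 encodes the BK channel, a large-conductance potassium channel opened by calcium and voltage. Its NBN level was 262, 142, 86.2, 68.9, 74.3 and 437 CPM in the same order of fish. In RG it had 3 reads in all, in fish 4 and 5, and the pooled ratio was 847 (290 to 4106, adjusted p = 4.3e-05). It was read in 70 of 164 NBN cells and in 2 of 73 RG cells before thinning. kcnn1a, a small-conductance calcium-activated channel, stood at between 8.16 and 48.4 CPM in the NBN gate (median 21.7) and at 0 in every RG fish.

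KCND3 encodes Kv4.3, an A-type channel, and kcnc3a a fast delayed rectifier of the Kv3 type. KCND3 was at 24.8, 83.5, 29.5, 43.8, 17.6 and 100 CPM in the NBN gate, and at 0 in each RG fish. Its pooled NBN level was 266-fold that of a floor of 3 reads over the RG gate (adjusted p = 0.0035). kcnc3a was at between 2.93 and 33.5 CPM in NBN (median 11.4) and 0 in RG, 63.5-fold by the same floor (adjusted p = 0.0050). Neither gene had a read in any of the 73 RG cells, but 4.11% of RG cells could still hold either one. These folds and the counting intervals above treat reads as independent, although PCR copies are not separate molecules. They are therefore not lower bounds on a difference between cells.

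The sodium channel genes called lower in RG included the pore SCN8A and the beta subunit SCN2B. SCN8A (ENSDARG00000005775) encodes a pore of the Nav1.6 type, found at mammalian axon initial segments. Its NBN level was 44.5, 39.6, 37.5, 15.5, 106 and 161 CPM, against 0 in every RG fish (adjusted p = 0.0021). The pooled NBN level was 356-fold that of a floor of 3 RG reads, with the same limit. SCN2B was at between 7.0 and 119 CPM in NBN (median 53.6), and its 4 RG reads all came from fish 4. Both genes were lower in RG in 6 of 6 fish.

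Calcium channel genes gave 1 pore subunit and 3 accessory subunits. CACNA1E, the pore of the R-type channel, was at 14.2, 10.8, 4.36, 13.2, 85.9 and 12.1 CPM in NBN and at 0 in RG, with fish 5 far above the others. CACNB1, a cytoplasmic beta subunit that brings the pore to the membrane, was at between 12.9 and 70.0 CPM in NBN (median 41.7) and had 1 RG read. CACNG2 (ENSDARG00000032565), a stargazin-type subunit that also binds AMPA receptors, was at between 14.0 and 118 CPM in NBN and at 0 in RG. CACNG3, of the same group, was at between 3.46 and 66.1 CPM in NBN with 7 reads in fish 4 of RG. The call of CACNG3 (adjusted p = 0.022, log2 difference -7.22, SE 1.93) was lost without fish 1, 3 or 5 (adjusted p of 0.070, 0.079 and 0.080), without the filter on low counts (0.054) and with the deposited fish label (0.096).

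**Figure D3:**
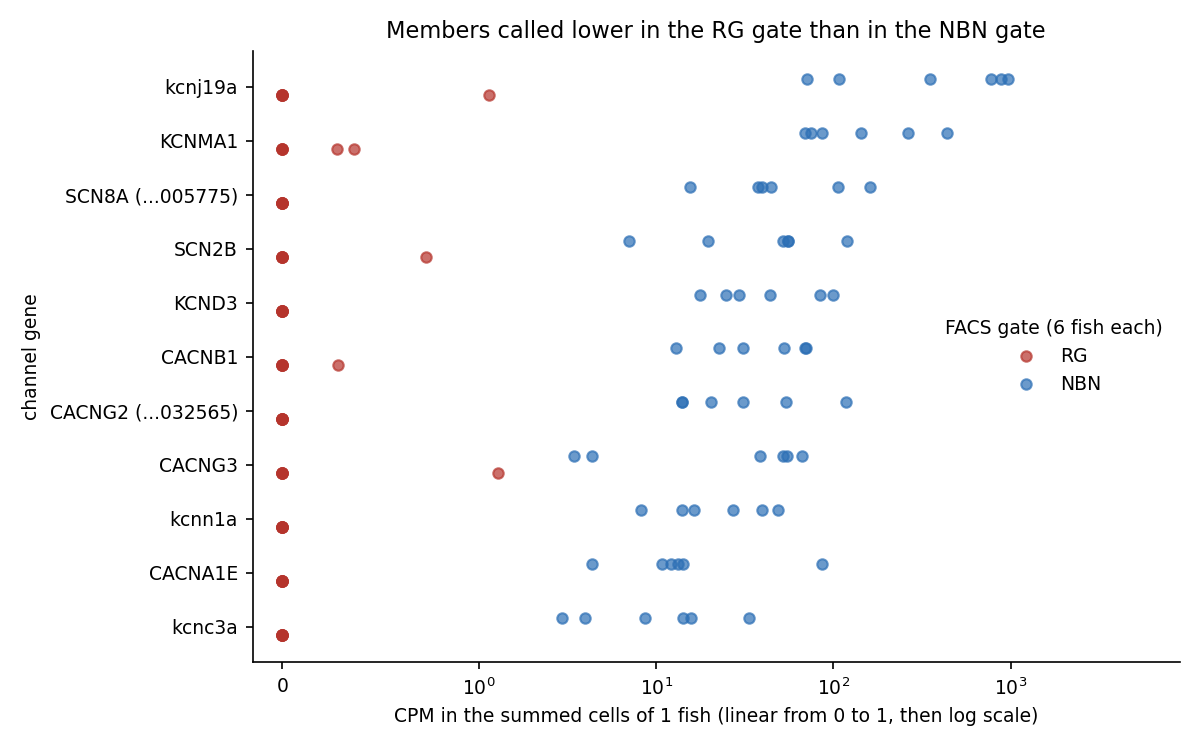
CPM of 11 of the 12 members called lower in the RG gate (x axis, linear from 0 to 1 and logarithmic above) by gene (y axis). Each point is the summed cells of 1 fish in 1 gate (6 fish each); RG points lie at 0 or up to 1.28 CPM, and NBN points between 2.93 and 970 CPM.

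Other members with high NBN levels did not pass the test between the gates. cacnb4b, a beta subunit and the member in the most NBN cells after thinning (40.9%), was at 250, 60.9, 445, 288, 256 and 294 CPM in NBN. In RG it was at 0, 81.2, 0, 61.8, 0 and 54.2 CPM, so that fish 2 was higher in RG, and the adjusted p was 0.23. With cells thinned before summing, however, edgeR called cacnb4b lower in RG (adjusted p = 0.027), where 9.29% of all genes were lower. SCN3B was at between 0 and 237 CPM in NBN and at up to 166 CPM in RG (adjusted p = 0.52). kcnip1b, a calcium-binding partner of Kv4 channels, was higher in NBN in 6 of 6 fish but had 59.2 and 46.2 CPM in RG of fish 2 and 5 (adjusted p = 0.42). The RG reads of such genes lay in few cells, 7 of 73 for cacnb4b and 2 of 73 for kcnip1b. With the fish as a replicate block, 15 members were called lower in RG, against 9.97% of all genes. The added genes were CACNG8 (ENSDARG00000020450, adjusted p 0.15 without the block and 0.019 with it), KCNC1 (ENSDARG00000051852, 0.42 and 0.035) and cacna1aa (0.32 and 0.047). The CACNG8 copy ENSDARG00000070626 was not called by edgeR (adjusted p 0.95 without the block and 0.35 with it). The log2 difference of this copy, RG minus NBN, changed sign from 0.44 without the block to -5.82 with it. Its pooled level was 35.1 CPM in RG and 20.8 in NBN, with 4 fish lower and 2 higher in RG.

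A list of other ion transport genes, with 88 genes of the HCN, chloride, TRP and intracellular calcium channels and the sodium pump, served as a neighbor outside the rule. Of its 23 tested genes, 7 were lower and 2 higher in RG. Those higher in RG included the sodium pump subunit ATP1B4 (log2 difference 4.97, SE 1.19, adjusted p = 0.0095). Those lower included the neuronal pump subunit atp1a3a (-11.23, SE 1.05, adjusted p = 3.4e-06) and the cation channel TRPC1 (-12.18, SE 1.76, adjusted p = 7.2e-04). Among the members, the copy of KCNJ1 with RG reads did not pass the filter on low counts. edgeR called KCNJ1 (ENSDARG00000002666) higher in RG without that filter (adjusted p = 0.0025) and with the deposited fish label (0.0084).

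Within the NBN gate, cells were classed by EBF3 (ENSDARG00000100244) and tubb5 (ENSDARG00000037997), as the gene with the higher level where it reached 100 CPM. EBF3 encodes a transcription factor and tubb5 a beta-tubulin of young neurons. This gave 57 EBF3-high cells, 81 tubb5-high cells and 26 cells with neither, and in 3 of the 164 cells the higher gene lay between 50 and 200 CPM. Both genes reached 100 CPM in 15 of the 164 cells, 11 of them classed as tubb5-high and 4 as EBF3-high. Class sums needed 3 cells, which left fish 2, 4, 5 and bfx811 for EBF3-high, all 6 fish for tubb5-high, and all but fish 3 for neither. Mature neuron markers summed to between 3123 and 6018 CPM in EBF3-high and to between 1129 and 1899 CPM in tubb5-high cells. Most of this came from snap25, at 3377 and 812 CPM in the pooled cells. sv2a, syt1, camk2a and sult4a1 also had higher pooled CPM in EBF3-high cells, but nrgn was nearly equal (175 and 163 CPM). nrgn was read in 12.3% of EBF3-high and 28.4% of tubb5-high cells. The neither class is mixed, with an olig2 read in 11 of 26 cells and oligodendrocyte lineage markers at between 285 and 11395 CPM. Its radial glia markers summed to between 660 and 13883 CPM (median 8369), against 280 to 1587 CPM in tubb5-high cells, and its mature neuron markers to between 805 and 7918 CPM. The part of these cells in the values of the neither class was not tested.

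Before scaling by the genes detected, the number of channel genes per cell did not separate EBF3-high from tubb5-high cells. After thinning, EBF3-high cells held 5.50, 6.0, 10 and 6.69 channel genes in fish 2, 4, 5 and bfx811, and tubb5-high cells of these fish held 6.33, 6.11, 7.0 and 7.0. EBF3-high was lower in 3 fish and higher in fish 5, with a mean difference of 0.44 ± 1.74 (SD, n = 4), and without fish 5 it was -0.42. EBF3-high cells had fewer genes of any kind, by -374 ± 303 (SD, n = 4). Per 1000 detected genes they held more channel genes in 4 of 4 fish, by 1.82 ± 0.37. These numbers include kcnj19a, which the study picked on these cells. After thinning, kcnj19a was read in 48 of 57 EBF3-high and 4 of 81 tubb5-high cells. The differences without kcnj19a were not computed, so they are not independent evidence. The neither cells held 2.67 ± 2.80 more channel genes than tubb5-high cells (SD, n = 5), higher in 5 of 5 fish, with 321 ± 496 more genes of any kind. Per 1000 detected genes that difference was 0.70 ± 0.85, and unthinned it was 3.16 ± 4.45 channel genes, each with 4 fish higher and 1 lower. The largest of the thinned differences, 7.29, was in bfx811, and without that fish the mean was 1.52.

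For the 188 members together, the CPM of each cell was averaged over the cells of a fish, in place of summing cells. These means were 4525 ± 150 CPM in EBF3-high cells (SD, n = 4 fish), 2042 ± 327 CPM in tubb5-high cells (n = 6) and 2971 ± 847 CPM in neither cells (n = 5). Without kcnj19a these means were 2781 ± 348, 2023 ± 319 and 2872 ± 663 CPM. The EBF3-high fish, at 2412 to 3156 CPM, then overlapped both the tubb5-high fish (1690 to 2551 CPM) and the neither fish (2208 to 3810 CPM).

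Reads of kcnj19a lay mostly in the EBF3-high class. Its level was 2069, 1919, 1106 and 1479 CPM in EBF3-high cells of fish 2, 4, 5 and bfx811. In tubb5-high cells it was 0, 0, 24.2, 29.1, 66.4 and 0 CPM in fish 1 to 5 and bfx811. The groups did not overlap. After thinning it was read in 84.2% of EBF3-high, 4.94% of tubb5-high and 7.69% of neither cells. The share was high in every fish with an EBF3-high sum, at 13 of 14 cells, 14 of 16, 4 of 8 and 14 of 16. edgeR gave a log2 difference of 5.99 with SE 1.67 and an adjusted p of 0.099, which misses the threshold, and with the fish as a replicate block the adjusted p was 1.5e-05. Over all alternatives it ranged from 2.6e-06 without the filter on low counts to 0.22 without fish 2. Since the study picked this gene on these cells, the difference is not independent evidence.

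The main class fit used a threshold of 100 CPM, the filter on low counts, no block and unthinned sums. It dropped no single fish and no cells with an olig2 read. No member passed edgeR's test between the classes in this fit, while kcnj19a passed under other settings that the closing section names. Of the 60 members tested, 0 were called between EBF3-high and tubb5-high by edgeR, against 0.529% of the 9444 genes tested. At an unadjusted p under 0.05 there were 7 of 60, against 12.4% of all genes, and DESeq2 called 6 of 60, against 6.27% of all genes. The shares of members thus lay near those of all genes by the unadjusted count. The median log2 difference of the members was -0.16 and that of all genes -0.07. Between neither and tubb5-high edgeR called 0 of 60 members, against 0.688% of all genes. There were 6 members at an unadjusted p under 0.05, against 10.4% of all genes, and 2 called by DESeq2, against 3.82% of all genes. The other ion transport genes gave 0 calls among 32 tested in either comparison, with 2 and 3 at an unadjusted p under 0.05 and 0 and 2 called by DESeq2.

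Between EBF3-high and tubb5-high cells kcnip3a, KCNB2, KCNG1 and CACNG3 were also at an unadjusted p under 0.05 by edgeR, with adjusted p of 0.22 to 0.26. They are among the 7 of 60 members (11.7%) at that level, against 12.4% of all genes. DESeq2 called all 4, with adjusted p of 0.041, 3.9e-09, 6.3e-10 and 0.0042 in the order named. Its log2 differences for KCNB2 and KCNG1 were -21.4 and -24.1, where edgeR gave -7.43 (SE 3.12) and -9.48 (SE 3.81). With 0 reads in 1 class, the size of such a difference is not fixed by the counts. kcnip3a had 586 reads in EBF3-high cells, in 3 of 4 fish, and 16 in tubb5-high cells. KCNB2 and KCNG1 had 0 reads in EBF3-high cells and 156 and 363 in tubb5-high cells. For each of these 2 genes 1 tubb5-high fish stood far from the others, at 31.1 CPM of KCNB2 and 195 CPM of KCNG1. CACNG3 had 1 read in EBF3-high cells, and in tubb5-high cells it ranged from 0 CPM in fish 2 and bfx811 to 129 CPM in fish 4.

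KCNMA1 was in 69.2% of neither cells after thinning against 22.2% of tubb5-high and 35.1% of EBF3-high cells, and scn1lab, a sodium channel pore, in 42.3%, 8.64% and 12.3%. SCN3B and cacnb4b had their highest share in tubb5-high cells, at 30.9% and 51.9%. These shares pool the cells of all fish and have no test of their own. In the summed reads edgeR called none of these genes between the classes. Neither minus tubb5-high was 0.79 (log2, SE 1.16) for KCNMA1 and 1.40 (SE 1.66) for scn1lab. EBF3-high minus tubb5-high was -1.70 (SE 1.76) for SCN3B and -0.91 (SE 1.05) for cacnb4b. Neither cells also had more genes of any kind after thinning. Their median was 1686.5, against 1309 in tubb5-high and 987 in EBF3-high cells.

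**Figure D4:**
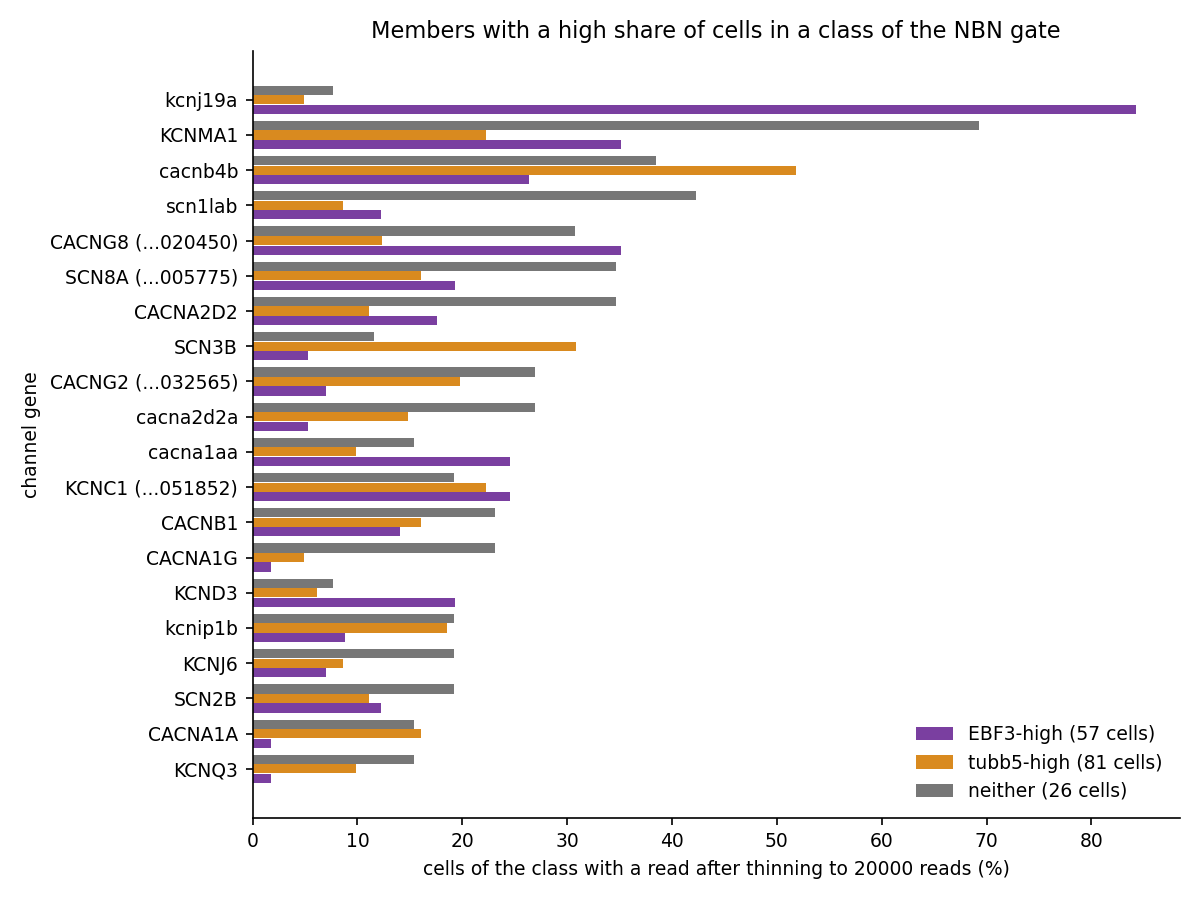
Share of cells with a read after thinning (x axis, percent) for 20 members with high shares in a class of the NBN gate (y axis), in EBF3-high (57), tubb5-high (81) and neither (26) cells. kcnj19a reaches 84.2% of EBF3-high cells, cacnb4b 51.9% of tubb5-high cells and KCNMA1 69.2% of neither cells.

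The MN gate can be set beside the NBN gate in bfx811 only, with 27 cells each, 5154208 and 3228221 reads in all, and no test. Of the NBN cells of this fish 16 were EBF3-high and 4 tubb5-high, so its NBN level came mostly from 1 class. Among the 62 members with reads in at least 5 cells of the pair, 30 were higher in MN with 95% Poisson intervals that did not overlap, against 40.8% of all genes, and 17 were lower, against 33.9% of all genes. The intervals cover counting error only, since PCR copies are not separate molecules. MN was also set against the NBN gate of the other 5 fish. Of the 62 members, 17 were higher with intervals apart in bfx811 and also above each of these fish, against 17.9% of all genes. In the same way, 0 were lower with intervals apart in bfx811 and also below each of these fish, against 7.46% of all genes. Members that did not meet the bfx811 condition are not counted, even where MN lay above each of the other fish. KCNMA1, lower in MN than in NBN of bfx811, was at 290 CPM in MN against at most 262 CPM in the other fish.

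The largest ratios in bfx811 belonged to genes that its NBN cells nearly lacked. SCN3B, a sodium channel beta subunit, had 0 reads in NBN and 685 in MN (133 CPM), 143-fold the level of a floor of 3 NBN reads. The 5 other fish, however, held SCN3B at 76.5 to 237 CPM in the NBN gate, so the MN level lay inside their range. KCNJ6, a G protein-gated inward rectifier, had 1 read in NBN and 90.2 CPM in MN, a ratio of 291 with a counting interval of 52.0 to 11528, and it too lay inside the range of the other NBN fish (13.7 to 108 CPM). KCNK1, a tandem-pore leak channel, was at 1.24 CPM in NBN and 49.3 in MN, against 0 to 62.2 CPM in the other fish. In the NBN gate, bfx811 thus lay below every other fish for SCN3B and KCNJ6, and inside the range of the other fish for KCNK1. The MN level of these 3 genes was not above every NBN fish.

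KCNB2, a delayed rectifier, and kcnj11, the pore of the ATP-sensitive channel, stood above each NBN fish. KCNB2 was at 41.9 CPM in MN (95% interval 36.5 to 47.9), at 0 in NBN of bfx811 and at 0.25 to 22.9 CPM in the other fish. kcnj11 was at 37.4 CPM in MN (32.4 to 43.1), at 0 in NBN of bfx811 and at 0 to 17.6 CPM elsewhere. Their MN reads came from 6 and 5 of the 27 cells. SCN2B was also above every NBN fish, at 207 CPM in MN against 119 in NBN of bfx811 and 7.0 to 55.2 CPM elsewhere, and it was read in 15 of 27 MN cells.

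Among the lowest ratios were those of KCNN2, kcnj19a, a copy of KCNJ3 (ENSDARG00000077165) and cacna1da. kcnj19a was at 185 CPM in MN (174 to 198) and 970 in NBN (936 to 1004), a ratio of 0.19, and the MN level lay inside the 71.1 to 886 CPM of the other NBN fish. KCNN2, a small-conductance calcium-activated channel, was at 2.33 and 27.9 CPM, but its 90 NBN reads came from 1 cell. The 2 copies of KCNJ3, another G protein-gated inward rectifier, went in opposite directions in this fish. ENSDARG00000077165 was at 12.6 CPM in MN and 52.4 in NBN, and ENSDARG00000062217 at 95.8 and 34.4 CPM. Because uniquely aligned reads were counted, reads shared by near-identical copies may be missing.

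**Figure D5:**
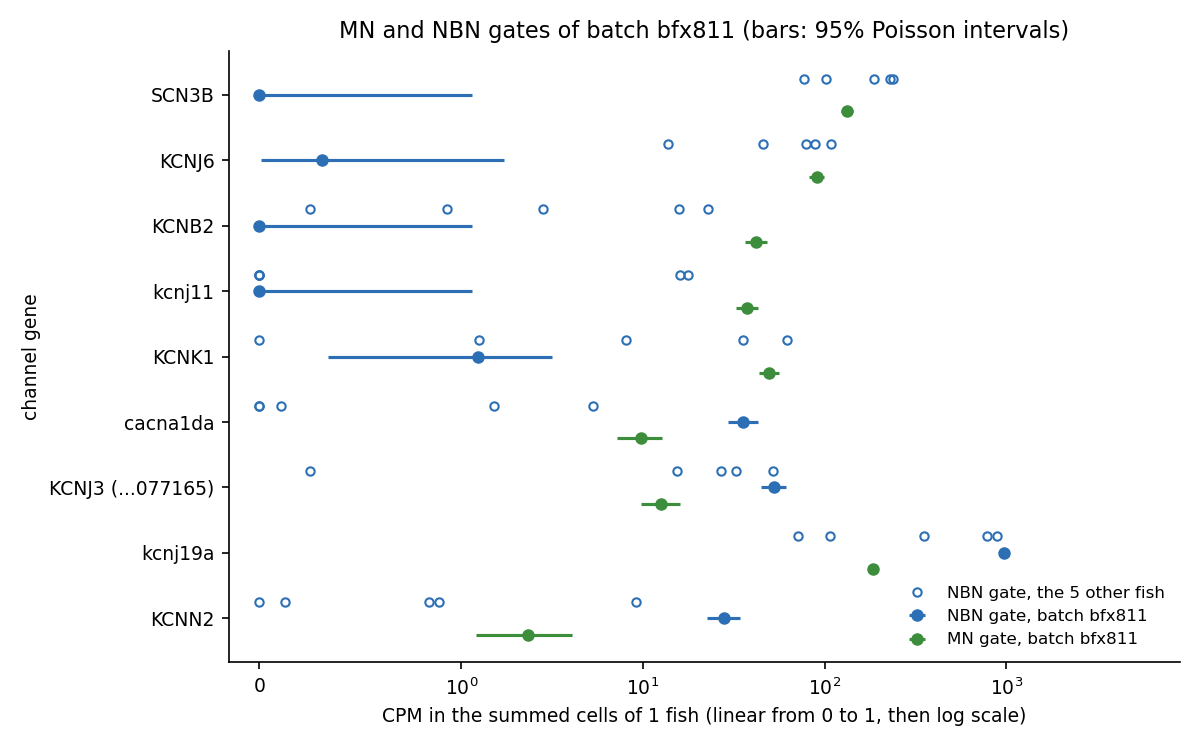
CPM (x axis, linear from 0 to 1 and logarithmic above) of members among the 5 lowest and the 5 highest ratios of MN over NBN in bfx811 (y axis). Filled points with 95% Poisson intervals are the MN and NBN gates of bfx811 and open circles the NBN gate of the 5 other fish; SCN3B is at 133 CPM in MN and at 76.5 to 237 CPM in the other NBN fish.

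By the rule for gate-specific genes (a read in at least 10% of the cells of a gate after thinning, and a share at least 5 times that in each other gate), no member was specific to RG or NBN. Over all genes, 11.1% of those in at least 10% of RG cells were specific to RG, and 0.478% of those in at least 10% of NBN cells to NBN. Only 1 member in RG and 18 members in NBN reached 10% of cells, too few to be read against these shares. Of the 52 members in at least 10% of MN cells, 10 (19.2%) were specific to MN, against 6.36% of all such genes. They were KCNJ3 (ENSDARG00000062217), KCNG1, KCNB2, kcnj11, KCNA1 (ENSDARG00000017108), CACNB3 (ENSDARG00000001881), cacnb2a, kcnh7, KCNIP4 and kcnj12a. Each lay in between 3 and 6 of 27 MN cells after thinning, and in up to 3 of the 27 NBN cells of the same fish. For CACNB3, KCNA1, cacnb2a, KCNG1 and kcnj12a the MN and NBN Poisson intervals of summed reads in bfx811 overlapped. Their summed level thus did not differ beyond counting error. In bfx811 the MN and NBN cells with a read after thinning were 5 and 1 for CACNB3 and 6 and 1 for KCNG1. They were 5 and 3 for both KCNA1 and cacnb2a, and 3 and 1 for kcnj12a. The 5-fold rule set MN of 1 fish against the NBN cells of all 6 fish, and these shares have no test.

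KCNG2, a silent Kv subunit, was singled out after its values were seen, because its reads followed the sequencing batch. Before thinning it was read in 66.0% of RG cells and 70.1% of NBN cells of batch bfx855 (fish 1 to 5), at medians of 2 and 1 reads in those cells, against 1 of 23 RG and 1 of 27 NBN cells of bfx811. Reads of at least 10 per cell were seen in 4 of 137 NBN cells and in no RG cell of bfx855, and in 3 of 27 MN cells. After thinning it was kept in 3 of 50 RG and 16 of 137 NBN cells of bfx855. The cause of the batch difference was not tested, and it adds up to 1 gene to the unthinned number of channel genes in fish 1 to 5.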

How the data were processed

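The authors aligned reads with GSNAP 2017-08-15 to GRCz10, counted uniquely aligned reads per gene with featureCounts 1.5.3 and deposited raw counts of all 370 cells, before filters and without normalization. Strand is not given in the sources used here, so reads of overlapping genes cannot be told apart. Of 32266 identifiers, 26433 were given a symbol. The members and lists were chosen with earlier results of these data known.

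The quality filters asked for log10 total reads over 4.5, between 2.7 and 3.9 for the log10 number of genes with more than 1 read, under 50% of reads in the top 50 genes, under 20% mitochondrial reads and over 20% of reads mapped. Spike-in reads were not filtered on. Cells were thinned at random to 20000 reads to count genes. Reads were summed per fish and gate, or per fish and class where it held 3 cells or more. Groups were compared with edgeR 4.0.16 (TMM, its filter on low counts, quasi-likelihood test, Benjamini-Hochberg adjusted p of 0.05), with DESeq2 1.42.0 as an alternative, in R 4.3.3 and Python 3.11.15 (scipy 1.17.1, pandas 2.3.3, numpy 2.4.6, matplotlib 3.10.9). The edgeR fits were also run on simulated counts, with large changes planted only in genes with many reads. Genes with few reads, and the contrast of neither against tubb5-high, were not covered by that run. Cells of a sum are separate cells of 1 fish, and fish are the replicates.

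The RG and NBN sums of a number come from the same fish, taken from the cell titles. With gate means removed, r between both sums of a fish was between -0.033 and 0.043 over 2000 genes. A fit that blocks on the fish was among the alternatives, which the closing section names. Permutation tests of the number of channel genes had been planned and are not reported, because that number is a score over chosen members. Genes were named where they passed a fit, led their family in the NBN gate, had a read in 25% of the cells of a gate, were gate-specific, were among the 5 highest or lowest ratios of MN over NBN, or were picked by the study. Some genes that meet this rule are not reported here. Genes outside this rule that are named as such were chosen after their values were seen, as were the members with an unadjusted p under 0.05 between classes.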

Additional observations from a re-analysis of the deposited data

Results flagged for a closer look

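In 51 groups of 4 to 6 fish (the number of channel genes per cell, and the CPM of the members named in the tests), 15 had 1 fish far from the others; chance alone gives about 1 in 20 groups, and groups with reads in a single fish are marked whatever their level. In the RG gate the highest fish held 0.28 CPM of CACNB1, 1.14 of kcnj19a, 1.28 of CACNG3 and 0.73 of SCN2B, each with 0 in the 5 other fish. In the NBN gate 1 fish held 85.9 CPM of CACNA1E, where the others held 4.36 to 14.2.

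In EBF3-high cells the fish that stood apart held 89.1 CPM of KCNC2, 69.7 of kcnj19b, 27.1 of CACNA1B (ENSDARG00000079295) and 0.38 of CACNG3. In tubb5-high cells they held 195 CPM of KCNG1, 31.1 of KCNB2 and 2.79 of kcnip3a. In neither cells they held 498 CPM of kcnj19a, 96.5 of KCNB2 and 81.3 of KCNG1. These sums held 8 to 16 EBF3-high, 4 to 24 tubb5-high and 3 to 7 neither cells, and the part of single cells was not tested.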

How the results depend on the processing

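The count of 12 members called between RG and NBN became 4 with cells thinned before summing, where 10 of the 12 were no longer tested, 21 (20 lower and 1 higher, KCNJ1) without the filter on low counts, and 22 (21 lower and 1 higher, KCNJ1) with the deposited fish label, which follows the plates, in place of the title number. Over all genes 9.29%, 3.86% and 7.61% were lower in these fits. Of the 4 calls with thinned cells, 2 were among the 12, and cacnb4b and scn1lab were added (adjusted p of 0.027 and 0.035 by edgeR). The count of members called was 15 with the fish as a replicate block and 11 to 14 without single fish. The 11 named members among the 12 kept their direction under every alternative that tested them. By edgeR, kcnc3a and CACNG3 lost the call without the filter (adjusted p of 0.057 and 0.054), as CACNG3 did with the deposited label (0.096). CACNG8 (ENSDARG00000070626), which was not called, changed sign from a log2 difference of 0.44 to -5.82 with the replicate block. For channel genes per cell, RG minus NBN was -8.20 unthinned and -4.24 per 1000 detected genes. EBF3-high minus tubb5-high (0.44) changed sign to -0.24 unthinned, -0.51 at a class threshold of 50 CPM and -0.25 at 500 CPM, and without single fish it ranged from -0.42 to 0.86. Per 1000 detected genes this difference was 1.82, above 0 in 4 of 4 fish, with kcnj19a among the genes counted. The count of 0 members called between EBF3-high and tubb5-high became 1 (kcnj19a) with thinned sums, with either class threshold, without the filter, with the replicate block and without cells with an olig2 read, was 6 with DESeq2, and was 0 to 1 without single fish, with 1 reached without fish 5. Between neither and tubb5-high DESeq2 called 2 members, and KCNC2 turned to a log2 difference of 0.11 at a class threshold of 500 CPM. Gate-specific members of MN numbered 27 of 52 with a ratio of 3 in place of 5, against 17.7% of all genes, and 8 of 64 unthinned, against 5.29%. The causes were not tested. DESeq2's size factors moved the median of all genes by 0.22, 0.27 and 0.46 (log2) in the gate and the 2 class comparisons. The filter on low counts left 159 of 188 members untested between gates, 35 of them with no read in any cell that passed, and low depth and absent expression cannot be told apart there. The MN gate is 1 fish.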
